A study of Homo sapiens with 12 samples.

Results

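The genes described here copy DNA or supply the nucleotides for it. They are 47 human genes of replication origins, the replicative helicase, the polymerases and their clamp, Okazaki fragment joining, chromatin assembly behind the fork and deoxynucleotide synthesis, taken from a list of names. All 47 were on the array, with 71 of its 47323 probes. Of these genes 44 passed the detection filter and were tested, among 10371 genes and 17356 probes tested in all. Each of the 44 was above background on all 12 arrays by its brightest probe, which stands for the gene below. The other 3 were dim: CDC6, a loader of the helicase, was above background on 1 of 12 arrays, GINS1, a helicase cofactor, on 4, and PRIM2, the large primase subunit, on 2.

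RNA came from MCF10A, an immortalised but untransformed line of human breast epithelium, in 3 groups: cells expressing the CYT2 form of the ERBB4 intracellular domain (ICD), cells expressing its CYT1 form, and cells with the control vector (VEC). ERBB4 is a receptor tyrosine kinase of the EGFR family. It can be cut within the membrane so that its ICD is freed, and CYT1 carries a stretch that binds phosphoinositide 3-kinase and is absent from CYT2. All groups were kept in regular medium with 10% serum, and the labels name no step to arrest the cell cycle and do not give the number of clones behind a group. Each group had 2 biological replicates of 2 technical arrays on an Illumina bead array.

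A cell licenses its origins in G1, when ORC, CDC6 and CDT1 load the MCM2 to MCM7 ring onto DNA, and fires them in S phase, when CDC45 and the GINS complex turn that ring into a running helicase. Primase and polymerase alpha start each strand, the clamp PCNA and its loader RFC tether polymerases delta and epsilon, and FEN1 and LIG1 trim and seal the Okazaki fragments. Ribonucleotide reductase (RRM1 and RRM2), TYMS, TK1 and DUT set the supply of deoxynucleotides. Many of these genes are transcribed under E2F factors around the start of S phase, and mitosis genes follow later in the cycle, through DREAM and B-MYB with FOXM1 acting at CHR and CCAAT elements. In RNA from whole cultures fewer cells in S phase and less RNA per cell cannot be told apart.

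The stretches before the starts of 6 of these genes are shown because they represent both ways in which the genes moved: TK1, RRM2, TYMS and DUT were higher in both ICD groups than in VEC, and MCM6 and POLA2 were lower in CYT1. RefSeq promoters of build GRCh38.p14 matched 41 of the 47 genes by symbol, with 57 listed starts, and were searched over the 250 bases before each start. The letters searched on both strands were TTTCCCGC, TTTGGCGC, TTTCGCGC and TTTGCCGC as E2F-type, CCAAT, and TTTGAA and TTCGAA as CHR-type. Where a gene had several starts (TK1 and RRM2 had 2, DUT had 4), the one with the most E2F-type, then CCAAT, matches is printed. The regions are chr18:657403-657652 on the plus strand for TYMS, chr15:48331947-48332196 plus for DUT, chr17:78187053-78187302 minus for TK1, chr2:10122489-10122738 plus for RRM2, chr2:135876444-135876693 minus for MCM6 and chr11:65261712-65261961 plus for POLA2. Each is given 5′ to 3′ on the gene's strand and ends at the base before the start, with E2F-type and CCAAT matches in capitals.
TYMS: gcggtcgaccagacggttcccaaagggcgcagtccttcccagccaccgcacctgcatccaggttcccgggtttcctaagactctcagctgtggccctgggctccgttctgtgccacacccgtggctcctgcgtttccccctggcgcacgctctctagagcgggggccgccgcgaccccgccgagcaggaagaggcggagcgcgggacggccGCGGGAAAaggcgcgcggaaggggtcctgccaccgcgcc
DUT: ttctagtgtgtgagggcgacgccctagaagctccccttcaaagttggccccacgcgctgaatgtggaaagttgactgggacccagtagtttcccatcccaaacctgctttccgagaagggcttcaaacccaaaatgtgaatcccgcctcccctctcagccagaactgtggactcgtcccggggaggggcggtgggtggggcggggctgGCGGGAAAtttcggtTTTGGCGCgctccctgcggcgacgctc
TK1: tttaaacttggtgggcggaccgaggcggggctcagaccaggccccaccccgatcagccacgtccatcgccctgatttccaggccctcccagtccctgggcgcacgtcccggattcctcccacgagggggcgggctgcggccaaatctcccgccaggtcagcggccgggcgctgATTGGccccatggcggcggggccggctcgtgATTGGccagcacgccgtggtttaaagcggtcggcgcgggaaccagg
RRM2: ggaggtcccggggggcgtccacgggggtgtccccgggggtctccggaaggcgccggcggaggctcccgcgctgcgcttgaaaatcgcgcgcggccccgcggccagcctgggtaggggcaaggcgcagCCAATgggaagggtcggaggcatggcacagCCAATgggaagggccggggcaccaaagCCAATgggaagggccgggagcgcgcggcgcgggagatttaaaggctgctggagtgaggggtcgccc
MCM6: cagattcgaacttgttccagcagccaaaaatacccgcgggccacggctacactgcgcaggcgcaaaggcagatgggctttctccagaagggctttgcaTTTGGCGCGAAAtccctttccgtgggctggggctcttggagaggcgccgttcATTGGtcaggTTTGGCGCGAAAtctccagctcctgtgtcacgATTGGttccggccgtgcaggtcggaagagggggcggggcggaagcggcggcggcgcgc
POLA2: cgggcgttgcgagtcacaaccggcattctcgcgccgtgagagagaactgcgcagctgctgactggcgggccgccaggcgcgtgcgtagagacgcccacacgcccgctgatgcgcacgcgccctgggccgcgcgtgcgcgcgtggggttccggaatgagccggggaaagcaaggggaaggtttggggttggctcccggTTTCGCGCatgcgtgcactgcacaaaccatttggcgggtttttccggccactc

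E2F-type letters stood before 17 of the 57 starts (29.8%), of 16 genes, against 2.79% of all 35116 promoters of the same length. CCAAT stood before 56.1% of the starts, against 32% of all promoters, and CHR-type letters before 5.26%, against 14.3%. E2F-type letters stood before 3 of the 8 matched genes that were higher in both ICD groups, 2 of 5 called higher in CYT2 and not called in CYT1, 6 of 12 that were lower in CYT1 and 5 of 13 that were not called, a difference that was not tested. Of the printed stretches, TK1 and RRM2 had CCAAT and no E2F-type letters in this window, while MCM6 had both. The 4 E2F-type matches of MCM6 lie in 2 places, each with overlapping matches on the 2 strands. A match describes letters only.

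**Figure D1:**
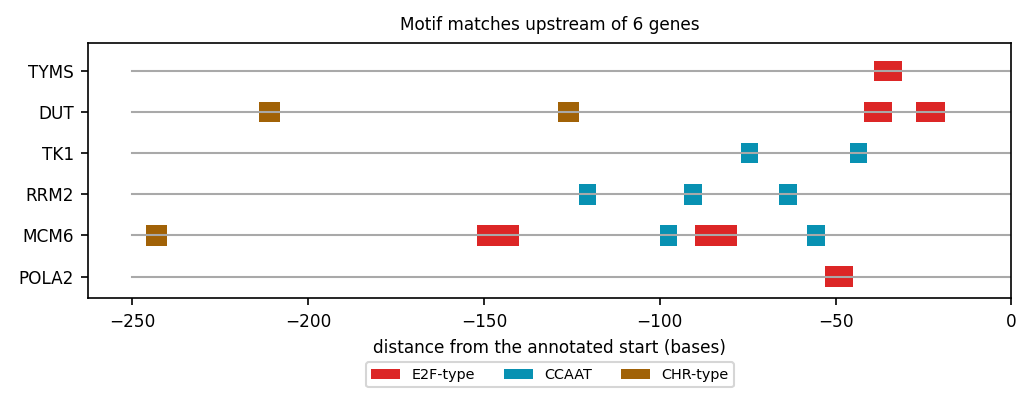
Positions of E2F-type, CCAAT and CHR-type letter matches (coloured boxes) in the 250 bases before the start of 6 genes, in bases from the start. TYMS, DUT, MCM6 and POLA2 hold E2F-type matches, and TK1, RRM2 and MCM6 hold CCAAT matches.

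Across the array, 17514 to 18721 probes (37.0% to 39.6%) were above background per array, and the medians of the deposited log2 values ran from 7.04 to 7.21. All 9 markers on the array from a list for MCF10A as a basal-like epithelium were above background on all 12 arrays. They were KRT5, KRT14, KRT18, CDH1, EGFR, ITGB4, LAMB3, S100A2 and SFN. The log2 of their summed normalised levels was 14.77 to 14.98 in CYT2, 14.70 to 14.80 in CYT1 and 15.36 to 15.47 in VEC. Such sums, here and below, take the brightest probe of every marker on the array, detected or not, and weigh bright markers most. Of 6 luminal and hormone receptor markers, FOXA1 was detected on all 12 arrays, and PGR and TFF1 on 0. None of 6 fibroblast markers and none of 4 endothelial markers was detected on every array. COL3A1, PDGFRB, THY1 and LUM, CDH5, VWF and KDR, and the leukocyte markers PTPRC and CD3E were detected on 0 arrays, while the leukocyte list's CD14 and CD68 were detected on all 12. Fibroblast markers summed to 7.84 to 8.06 in CYT2, 8.02 to 8.23 in CYT1 and 7.55 to 7.77 in VEC, and leukocyte markers to 11.05 to 11.16 in CYT2, 11.12 to 11.17 in CYT1 and 11.56 to 11.62 in VEC. Endothelial markers summed to 6.85 to 7.00 in CYT2, 6.77 to 7.07 in CYT1 and 6.72 to 6.99 in VEC, and luminal ones to 9.01 to 9.10 in CYT2, 8.65 to 8.88 in CYT1 and 8.94 to 9.04 in VEC. The part of these levels in the results below was not tested. Arrays of one biological replicate were no more alike (median Pearson correlation over probes 0.989) than arrays of different replicates of a group (0.989 and 0.990), against 0.967 between groups. Nothing in the labels says that biological numbers mark separate cultures, so p-values measure the spread between these samples, which may be technical.

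The comparisons ask how each ICD form changed the transcript levels of the replication genes relative to the vector cells. Against VEC, CYT2 cells had 15 of 44 genes higher and 0 lower by limma (adjusted p under 0.05 after Benjamini-Hochberg adjustment over all probes), and CYT1 cells had 9 higher and 13 lower. At an unadjusted p under 0.05 the numbers were 18 for CYT2, against 42.4% of all probes, and 28 for CYT1, against 46.6%. Of all probes 30.4% were called for CYT2 (14.7% higher and 15.6% lower), against 34.1% of these genes. For CYT1 35.9% of all probes were called (16.7% higher and 19.2% lower), against 50% of these genes. The median log2 fold change of the 44 genes was 0.13 for CYT2 and -0.19 for CYT1, and that of all probes -0.05 and -0.04. Values above 0 were seen for 31 of 44 genes in CYT2, against 44.4% of probes, and for 13 of 44 in CYT1, against 45.3%. The 4 CYT2 arrays all lay above the 4 VEC arrays for 18 genes and all below for 3, against 15.7% and 18.7% of probes (34.5% in either direction). The CYT1 arrays lay all above for 8 genes and all below for 16, against 17% and 20.2% of probes (37.1% in either direction). The total called in CYT2 was thus near that of all probes, and with the scaling used here its direction was one-sided. Other scalings, given below, made it less so.

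The calls fell into 4 sets. ORC6, CDC45, GINS4, LIG1, TYMS, TK1, RRM1, RRM2 and DUT (9 genes) were higher in both ICD groups. Another 6, CDT1, MCM7, RFC4, RPA2, FEN1 and TIMELESS, were called higher in CYT2 and not called in CYT1. The 13 genes GMNN, MCM2, MCM3, MCM5, MCM6, GINS2, GINS3, RFC2, RFC5, POLA2, PRIM1, POLD2 and TIPIN were called lower in CYT1 and not called in CYT2, and 16 passed in neither comparison. No gene was called in opposite directions. Both comparisons share the VEC samples, so their calls are not independent, and the difference between the forms is tested directly further on.

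The scaling of the arrays shifts the balance. Shifting each array to a common median moved the median of all probes to -0.11 for CYT2 and -0.13 for CYT1, and gave 10 higher and 3 lower genes for CYT2 and 5 higher and 20 lower for CYT1. With the deposited log2 values, which are not scaled, the counts were 11 and 6 for CYT2 and 5 and 23 for CYT1. In CYT2 24 of 44 genes lay above 0 with median scaling (median 0.025) and 23 with the deposited values (median 0.010), and in CYT1 10 did with either. Over all probes, CYT2 had 2558 higher and 2714 lower, against 2218 and 3757 with median scaling and 2070 and 4560 with the deposited values. CYT1 had 2895 higher and 3334 lower, against 2354 and 4648 and against 2292 and 5037. When 1 replicate of any group was left out, 8 of the 15 calls held in CYT2 each time (ORC6, CDC45, GINS4, LIG1, TYMS, TK1, RRM2 and DUT). In CYT1 8 of 22 did (ORC6, MCM2, GINS4, PRIM1, POLD2, TYMS, TK1 and RRM2).

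**Figure D2:**
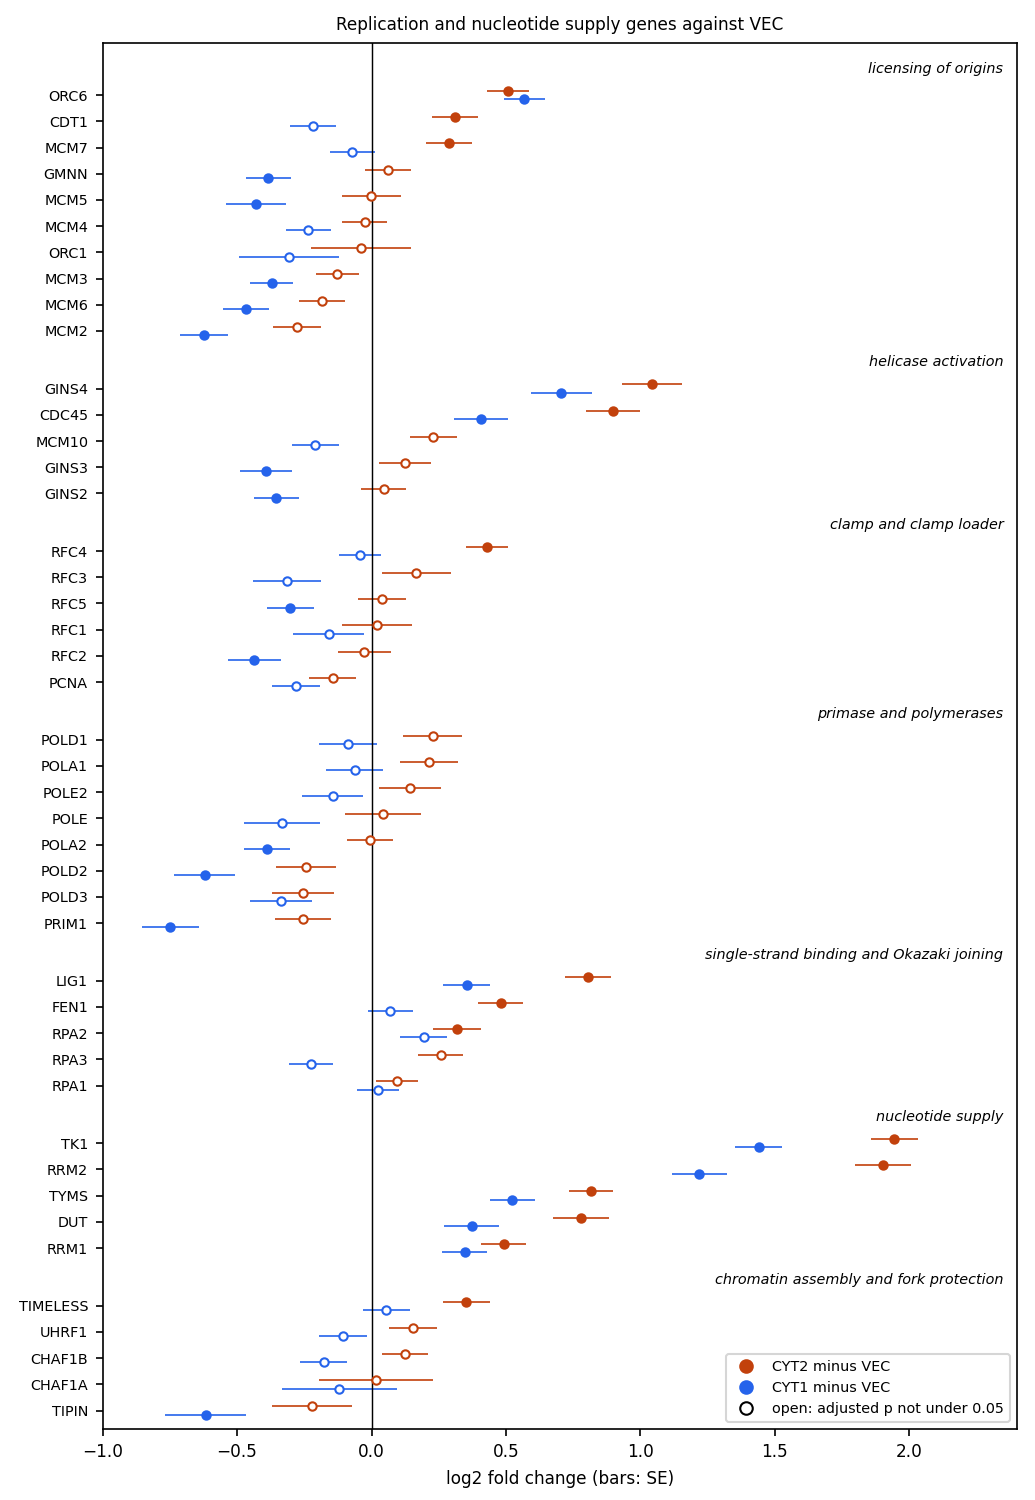
Log2 fold change of the 44 tested genes by role, CYT2 minus VEC (orange) and CYT1 minus VEC (blue), with the model's SE as bars and open symbols where the adjusted p was not under 0.05. The 5 nucleotide supply genes lie right of 0 in both comparisons, and most licensing, clamp and polymerase genes lie left of 0 for CYT1 and near it for CYT2.

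The nucleotide supply genes among the 47 rose in both ICD groups, 5 of 5 in each, with medians of 0.82 in CYT2 and 0.52 in CYT1. Of all probes 14.7% were called higher in CYT2 and 16.7% in CYT1. Of 12 further tested genes of thymidylate and deoxynucleotide supply, outside the 47, 2 rose and 1 fell in CYT2, with a median of 0.00. In CYT1 1 rose and 2 fell, with a median of -0.14. The share called was 25% in each comparison, under the 30.4% of all probes in CYT2 and 35.9% in CYT1. TK1, thymidine kinase of the salvage route, gave normalised log2 signals of 9.92, 10.00, 9.94 and 9.96 on the CYT2 arrays, 9.34, 9.55, 9.43 and 9.49 on the CYT1 arrays and 7.87, 8.00, 8.06 and 8.12 on the VEC arrays. In this and the following sentences the values stand in the order replicate 1 and then replicate 2, each with its 2 technical arrays. The 3 groups did not overlap. TK1 was thus 3.85-fold higher in CYT2 (log2 1.94 ± 0.09, SE, n = 2 replicates per group, limma adjusted p = 9.39e-05) and 2.71-fold higher in CYT1 (1.44 ± 0.09, adjusted p = 0.000198) than in VEC.

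RRM2, the regulated subunit of ribonucleotide reductase, measured 9.35, 9.59, 9.30 and 9.37 in CYT2, 8.73, 8.55, 8.93 and 8.66 in CYT1 and 7.56, 7.56, 7.34 and 7.52 in VEC. Again no array of one group reached those of another. Its rise was 3.74-fold in CYT2 (log2 1.90 ± 0.10, adjusted p = 0.000175) and 2.33-fold in CYT1 (1.22 ± 0.10, adjusted p = 0.000555). For TYMS, thymidylate synthase, the signals were 11.70, 11.68, 11.87 and 11.72 in CYT2, 11.66, 11.31, 11.64 and 11.20 in CYT1 and 10.75, 11.11, 11.05 and 10.80 in VEC. The CYT1 arrays lay between the other groups and spread widely, with technical array 1 above technical array 2 in both replicates. TYMS rose by log2 0.82 ± 0.08 in CYT2 (adjusted p = 0.0014) and 0.52 ± 0.08 in CYT1 (adjusted p = 0.00514).

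The rises of the other members of the group were smaller. DUT, which removes dUTP before it can enter DNA, averaged 9.25 ± 0.11 in CYT2, 8.85 ± 0.07 in CYT1 and 8.47 ± 0.12 in VEC (SD, n = 2 replicates), log2 fold changes of 0.78 in CYT2 (adjusted p = 0.00345) and 0.37 in CYT1 (adjusted p = 0.0351). RRM1, the large reductase subunit, averaged 11.69 ± 0.01 in CYT2, 11.55 ± 0.05 in CYT1 and 11.20 ± 0.07 in VEC, with changes of 0.49 in CYT2 (adjusted p = 0.00817) and 0.35 in CYT1 (adjusted p = 0.0225). The CYT1 calls of DUT and RRM1 ended when either CYT1 or either VEC replicate was left out (log2 0.29 to 0.46 for DUT and 0.30 to 0.40 for RRM1). Over all 19 alternatives tried, left-out replicates among them, the CYT1 call held in 8 for DUT and 10 for RRM1. The CYT2 call of RRM1 ended without VEC replicate 2 (adjusted p = 0.0509). DUT had 3 probes that disagreed: the second rose by 0.52 in CYT2 (adjusted p = 0.00978) and stood at 0.24 in CYT1 (adjusted p = 0.0986), while the third, at -0.02 in CYT2 and -0.07 in CYT1, passed in neither.

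**Figure D3:**
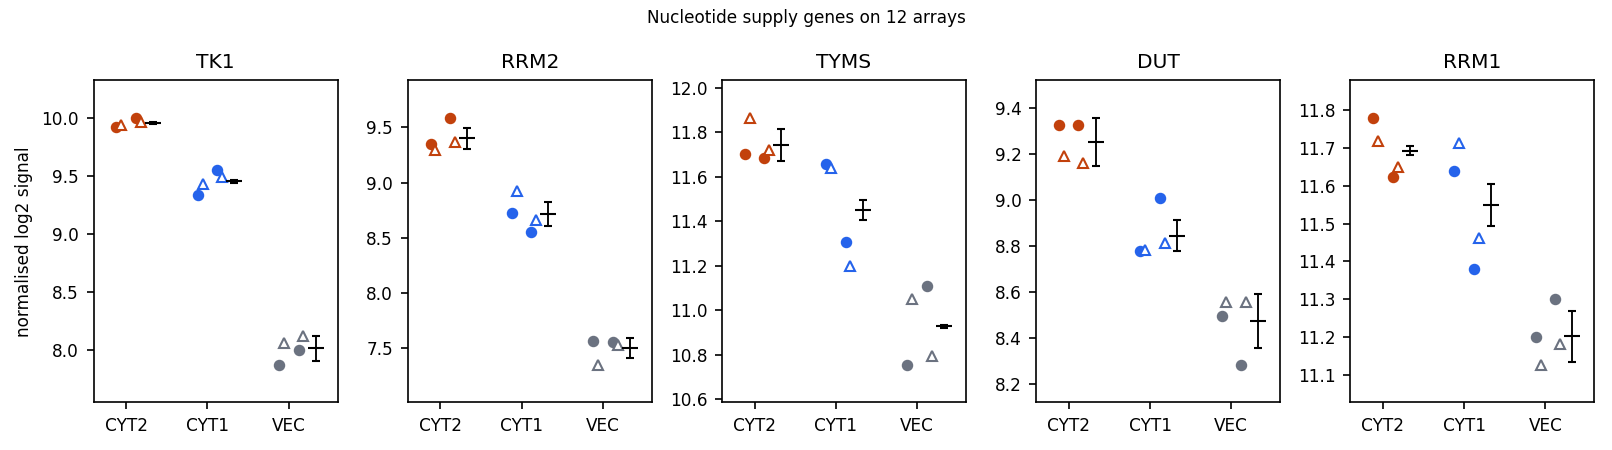
Normalised log2 signal of the 5 nucleotide supply genes on 12 arrays by group, circles for biological replicate 1 and triangles for replicate 2, with the mean ± SD of the 2 replicates beside them. CYT2 arrays are highest for TK1, RRM2, TYMS and DUT, CYT1 arrays between, and VEC arrays lowest for all 5.

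Licensing genes divided. Of 10 tested, 3 were higher and 0 lower in CYT2, and 1 was higher and 5 lower in CYT1. The share called was 30% in CYT2, near the 30.4% of all probes, and 60% in CYT1, against 35.9%. ORC6, the smallest subunit of the origin recognition complex, gave 13.98, 14.13, 13.90 and 14.25 in CYT2, 13.97, 14.27, 13.96 and 14.31 in CYT1 and 13.55, 13.61, 13.46 and 13.62 in VEC. Both ICD groups lay above VEC and overlapped each other. ORC6 rose by log2 0.51 ± 0.08 in CYT2 (adjusted p = 0.00564) and 0.57 ± 0.08 in CYT1 (adjusted p = 0.00299). Its second probe rose by 0.43 in CYT2 (adjusted p = 0.0256) and did not pass in CYT1 (0.19, adjusted p = 0.214).

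The 6 subunits of the helicase ring all read below VEC in CYT1, and 4 of them passed (66.7%, against 35.9% of all probes). In CYT1 those that fell were MCM2, MCM3, MCM5 and MCM6, and the range over all 6 was -0.62 to -0.07. In CYT2 1 rose, MCM7, and the range was -0.28 to 0.29. MCM2 measured 9.05, 9.01, 9.01 and 9.04 in CYT2, 8.70, 8.82, 8.72 and 8.48 in CYT1 and 9.36, 9.22, 9.18 and 9.46 in VEC. The groups did not overlap, with CYT2 in the middle. MCM2 fell by 0.62 ± 0.09 on the log2 scale in CYT1 (adjusted p = 0.00356) and stood at -0.28 ± 0.09 in CYT2, where it did not pass (adjusted p = 0.0622).

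MCM6 gave 11.85, 11.58, 11.77 and 11.52 in CYT2, 11.41, 11.48, 11.38 and 11.32 in CYT1 and 11.75, 11.91, 11.87 and 11.93 in VEC. The CYT1 arrays were the lowest, and the CYT2 arrays overlapped those of VEC. Its fall in CYT1 was -0.47 ± 0.09 (adjusted p = 0.00861, and 0.0515 without VEC replicate 2), and in CYT2 it stood at -0.18 (adjusted p = 0.16). MCM3 fell by 0.37 and MCM5 by 0.43 on the log2 scale in CYT1 (adjusted p = 0.0156 for MCM3 and 0.0271 for MCM5), although the MCM5 arrays of CYT1 and VEC overlapped. These calls ended without CYT1 replicate 2 or VEC replicate 2, and for MCM3 also without VEC replicate 1 (adjusted p 0.0506 to 0.0817 for MCM3 and 0.116 to 0.127 for MCM5). MCM4, at -0.24 in CYT1 and -0.03 in CYT2, passed in neither. MCM7 rose by 0.29 in CYT2 (adjusted p = 0.0477), a call that ended when any 1 replicate was left out (adjusted p 0.0616 to 0.177), and its second probe stood at 0.33 (adjusted p = 0.0681). With median scaling the range of the 6 subunits was -0.40 to 0.16 in CYT2 and -0.78 to -0.24 in CYT1.

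The regulators of loading also differed in their calls. CDT1, which brings the ring to the origin, averaged 8.98 ± 0.09 in CYT2, 8.45 ± 0.01 in CYT1 and 8.66 ± 0.02 in VEC (SD, n = 2). It rose by 0.31 in CYT2 (adjusted p = 0.0383), a call that ended when any 1 replicate was left out (adjusted p 0.0608 to 0.161), and stood at -0.22 in CYT1 (adjusted p = 0.0951). GMNN, geminin, the inhibitor of CDT1, averaged 9.16 ± 0.03 in CYT2, 8.71 ± 0.03 in CYT1 and 9.09 ± 0.08 in VEC. It fell by 0.38 on the log2 scale in CYT1 (adjusted p = 0.0159), with adjusted p 0.0519 to 0.0848 without either CYT1 replicate or VEC replicate 2. ORC1, the ATPase of the origin recognition complex, passed in neither comparison (-0.04 in CYT2 and -0.31 in CYT1).

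**Figure D4:**
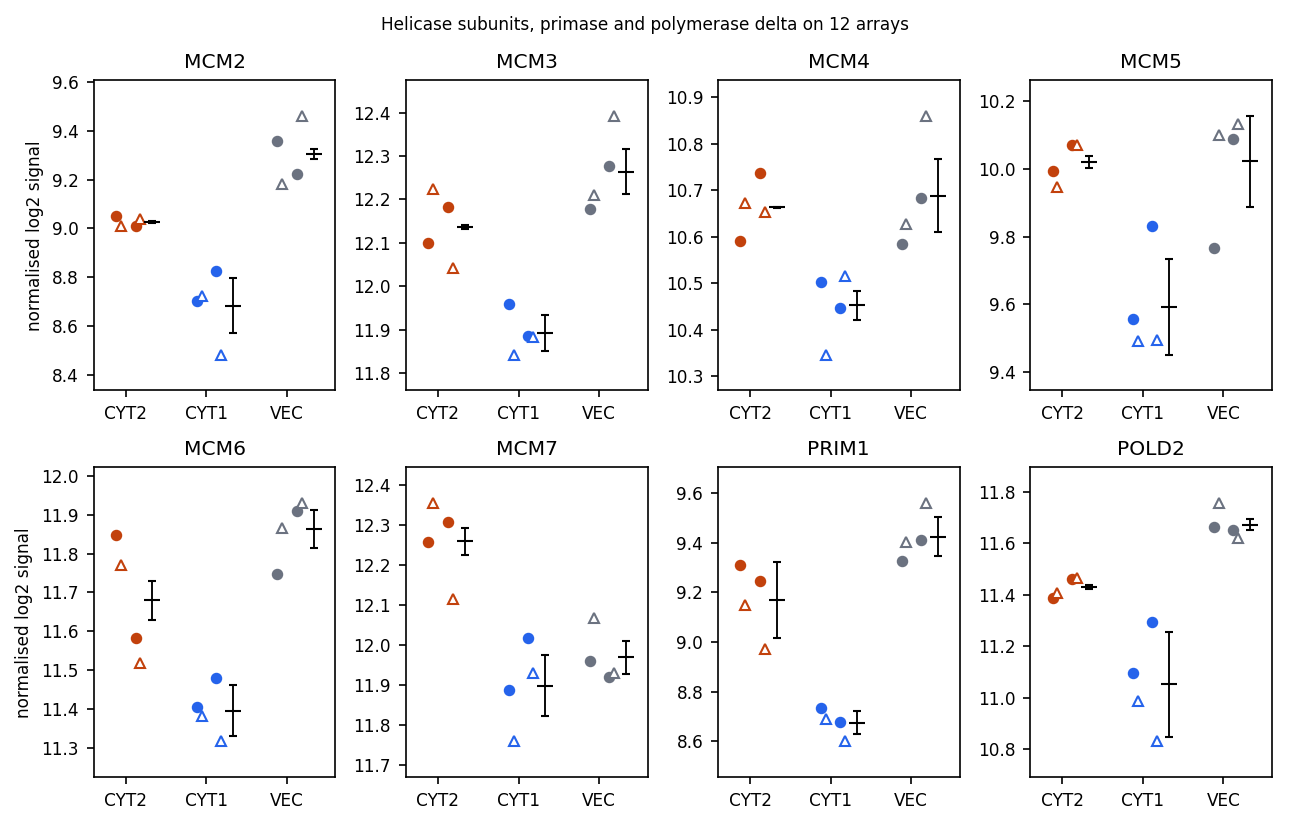
Normalised log2 signal of the 6 helicase ring subunits, PRIM1 and POLD2 on 12 arrays by group, circles for biological replicate 1 and triangles for replicate 2, with the mean ± SD of the 2 replicates beside them. CYT1 arrays lie below all CYT2 arrays in every panel, and MCM7 is the panel in which CYT2 arrays lie above all VEC arrays.

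Helicase activation genes were split within a single complex in CYT1. Of 5 tested, 2 rose and 2 fell there (80%, against 35.9% of all probes). In CYT2 2 rose and 0 fell (40%, against 30.4%), and all 5 read above VEC. CDC45, which joins MCM and GINS in the running helicase, gave 10.35, 10.25, 10.22 and 10.26 in CYT2, 9.72, 9.93, 9.82 and 9.65 in CYT1 and 9.47, 9.47, 9.16 and 9.39 in VEC. The 3 groups did not overlap. The rise was 0.90 ± 0.10 in CYT2 (adjusted p = 0.00194) and 0.41 ± 0.10 in CYT1 (adjusted p = 0.024), the second ending without either CYT1 replicate or VEC replicate 2 (adjusted p 0.0595 to 0.112). GINS4 measured 6.98, 6.76, 6.99 and 6.75 in CYT2, 6.73, 6.10, 6.65 and 6.65 in CYT1 and 5.87, 5.61, 5.92 and 5.91 in VEC. All ICD arrays lay above all VEC arrays. GINS4 rose by 1.04 ± 0.11 in CYT2 (adjusted p = 0.00176) and 0.71 ± 0.11 in CYT1 (adjusted p = 0.00531).

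Other subunits of the same GINS complex moved the other way in CYT1. GINS3 gave 8.97, 8.83, 8.87 and 8.78 in CYT2, 8.48, 8.40, 8.27 and 8.23 in CYT1 and 8.78, 8.68, 8.78 and 8.71 in VEC. The CYT1 arrays were the lowest and the other groups met at 8.78. GINS3 fell by 0.39 ± 0.10 on the log2 scale in CYT1 (adjusted p = 0.0239) and stood at 0.12 in CYT2 (adjusted p = 0.375). GINS2 fell by 0.35 in CYT1 (adjusted p = 0.0211) and stood at 0.05 in CYT2. Both CYT1 calls ended without CYT1 replicate 2 or either VEC replicate, and that of GINS2 also without CYT1 replicate 1 (adjusted p 0.0855 to 0.102 for GINS3 and 0.0663 to 0.0927 for GINS2). MCM10, a factor needed to start the helicase, passed in neither by its brightest probe (0.23 in CYT2 and -0.21 in CYT1), and its second probe fell by 0.53 in CYT1 (adjusted p = 0.0383).

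Of the 6 genes of the clamp and its loader, 1 rose and 0 fell in CYT2, and 0 rose and 2 fell in CYT1. These shares, 16.7% in CYT2 and 33.3% in CYT1, were under the 30.4% and 35.9% of all probes. RFC4, a small loader subunit, gave 10.61, 10.68, 10.57 and 10.60 in CYT2, 10.23, 10.07, 10.23 and 10.05 in CYT1 and 10.15, 10.24, 10.15 and 10.21 in VEC. CYT2 stood above, and CYT1 and VEC overlapped. It rose by 0.43 ± 0.08 in CYT2 (adjusted p = 0.00991) and stood at -0.04 in CYT1 (adjusted p = 0.711). The CYT2 call ended without CYT2 replicate 1 or either VEC replicate (adjusted p 0.0511 to 0.0567), and the second probe rose by 0.38 (adjusted p = 0.0159).

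RFC2, another small subunit, gave 7.48, 7.35, 7.39 and 7.86 in CYT2, 7.14, 7.09, 6.95 and 7.28 in CYT1 and 7.54, 7.62, 7.42 and 7.61 in VEC. CYT1 arrays were the lowest, and CYT2 and VEC overlapped. The change in CYT1 was -0.44 ± 0.10 (adjusted p = 0.0183), but its second probe stood at 0.15 (adjusted p = 0.633). RFC5 measured 9.61, 9.48, 9.52 and 9.55 in CYT2, 9.19, 9.18, 9.23 and 9.20 in CYT1 and 9.50, 9.35, 9.54 and 9.61 in VEC. Its CYT1 arrays were tightly grouped below the others, a change of -0.30 ± 0.09 (adjusted p = 0.0409). Both calls were lost when either CYT1 or either VEC replicate was left out, and that of RFC5 also without either CYT2 replicate (adjusted p 0.0607 to 0.0873 for RFC2 and 0.0582 to 0.18 for RFC5).

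PCNA, the clamp, averaged 11.64 ± 0.07 in CYT2, 11.51 ± 0.03 in CYT1 and 11.79 ± 0.08 in VEC (SD, n = 2). Its CYT1 arrays lay below those of VEC, but it passed in neither comparison (-0.15 in CYT2, adjusted p = 0.264, and -0.28 in CYT1, adjusted p = 0.0512). RFC1 and RFC3 did not pass by their brightest probes, at 0.02 and 0.17 in CYT2 and -0.16 and -0.31 in CYT1. The second probe of RFC3 rose by 0.69 in CYT2 (adjusted p = 0.0163), and that of RFC1 fell by 0.32 on the log2 scale in CYT1 (adjusted p = 0.032).

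Primase and polymerase genes read below VEC in CYT1, 8 of 8, and 3 passed. None of the 8 was called in CYT2 by limma, nor did any have an unadjusted p under 0.05 there (0 of 8), while 3 fell and 0 rose in CYT1. The share called in CYT1, 37.5%, was near the 35.9% of all probes, and in CYT2 30.4% of all probes were called. PRIM1, the catalytic primase subunit, gave 9.31, 9.25, 9.15 and 8.97 in CYT2, 8.74, 8.68, 8.69 and 8.60 in CYT1 and 9.32, 9.41, 9.40 and 9.56 in VEC. The groups did not overlap, with the CYT2 arrays between the others. It fell by 0.75 ± 0.10 on the log2 scale in CYT1, to 0.60 of the VEC level (adjusted p = 0.0033), and stood at -0.25 ± 0.10 in CYT2 (adjusted p = 0.119). The second probe stood at -0.26 in CYT2 (adjusted p = 0.0528) and fell by 0.79 in CYT1 (adjusted p = 0.000974).

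POLD2, the small accessory subunit of polymerase delta, gave 11.39, 11.46, 11.40 and 11.46 in CYT2, 11.10, 11.29, 10.99 and 10.83 in CYT1 and 11.66, 11.65, 11.76 and 11.62 in VEC. All CYT1 arrays lay below all CYT2 arrays, and these below VEC. The fall was -0.62 ± 0.11 in CYT1 (adjusted p = 0.00825), and the value in CYT2 was -0.24 ± 0.11 (adjusted p = 0.155). Its second probe fell by 0.34 on the log2 scale in CYT2 too (adjusted p = 0.0394), so the count of 0 lower genes in CYT2 holds for the brightest probe of each gene. POLA2, the regulatory subunit of polymerase alpha, measured 9.48, 9.37, 9.56 and 9.03 in CYT2, 8.92, 9.03, 9.00 and 8.95 in CYT1 and 9.44, 9.36, 9.26 and 9.40 in VEC. One CYT2 array reached into the CYT1 range, and CYT1 lay below VEC. POLA2 fell by 0.39 ± 0.09 in CYT1 (adjusted p = 0.0167, and 0.0563 to 0.0835 when either CYT1 or either VEC replicate was left out).

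The remaining polymerase genes did not pass. POLA1 and POLD1, the catalytic subunits of polymerases alpha and delta, stood at 0.21 and 0.23 in CYT2 and at -0.06 and -0.09 in CYT1. POLE and POLE2, of the leading-strand polymerase epsilon, stood at 0.04 and 0.14 in CYT2 and at -0.33 and -0.15 in CYT1. POLD3, an accessory subunit of polymerase delta, stood at -0.25 in CYT2 and -0.34 in CYT1.

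Single-strand binding and Okazaki joining genes were higher in CYT2 in 3 of 5 cases, and in CYT1 in 1 of 5, with 0 lower in either by limma at an adjusted p under 0.05. The shares called were 60% in CYT2 and 20% in CYT1, against 30.4% and 35.9% of all probes. LIG1, the ligase of Okazaki fragments, gave 7.97, 8.03, 7.86 and 7.91 in CYT2, 7.45, 7.59, 7.30 and 7.62 in CYT1 and 7.14, 7.07, 7.00 and 7.33 in VEC. CYT2 stood clear of the others, and CYT1 overlapped VEC by 1 array on each side. The change was 0.81 ± 0.09 in CYT2 (adjusted p = 0.00172) and 0.35 ± 0.09 in CYT1 (adjusted p = 0.0235, and 0.0643 to 0.107 when either CYT1 or either VEC replicate was left out). FEN1, the flap nuclease that acts just before the ligase, gave 11.67, 11.79, 11.83 and 11.60 in CYT2, 11.19, 11.32, 11.46 and 11.27 in CYT1 and 11.25, 11.28, 11.24 and 11.20 in VEC. CYT1 spread across the VEC range. FEN1 rose by 0.48 ± 0.08 in CYT2 (adjusted p = 0.00875, and 0.0522 without VEC replicate 2) and stood at 0.07 in CYT1, and its second probe rose by 0.39 in CYT2 (adjusted p = 0.0162) and stood at 0.10 in CYT1.

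RPA2, a subunit of the single-strand binding complex, measured 10.70, 10.88, 10.86 and 10.75 in CYT2, 10.72, 10.57, 10.58 and 10.82 in CYT1 and 10.42, 10.39, 10.69 and 10.43 in VEC. One VEC array stood above the other 3 and within the CYT1 range. The rise in CYT2 was 0.32 ± 0.09 (adjusted p = 0.0415), and the call ended when any 1 replicate was left out (adjusted p 0.063 to 0.179). In CYT1 it stood at 0.19 (adjusted p = 0.141). RPA1 and RPA3 passed in neither comparison, at 0.09 and 0.26 in CYT2 and 0.02 and -0.23 in CYT1.

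Of 5 chromatin assembly and fork protection genes, 1 was higher in CYT2 and 1 lower in CYT1. The share called, 20% in each comparison, was under the 30.4% of all probes in CYT2 and 35.9% in CYT1. TIMELESS and TIPIN form a complex that steadies the fork, and they were not called in the same comparison. TIMELESS gave 9.58, 9.61, 9.69 and 9.70 in CYT2, 9.26, 9.41, 9.30 and 9.40 in CYT1 and 9.26, 9.43, 9.32 and 9.15 in VEC. Only the CYT2 arrays stood apart, with a rise of 0.35 ± 0.09 (adjusted p = 0.0283, and 0.066 to 0.131 when either CYT2 or either VEC replicate was left out), against 0.05 in CYT1. TIPIN gave 7.61, 7.37, 7.65 and 7.74 in CYT2, 7.73, 7.06, 7.25 and 6.75 in CYT1 and 7.70, 7.97, 7.76 and 7.83 in VEC. Its CYT1 arrays spread over more than those of the other groups, and one lay within the VEC range. TIPIN fell by 0.62 ± 0.15 in CYT1 (adjusted p = 0.0221, and 0.07 to 0.0903 without CYT1 replicate 2 or either VEC replicate) and stood at -0.22 in CYT2. UHRF1, which guides maintenance methylation, and the chromatin assembly factor genes CHAF1A and CHAF1B passed in neither, at 0.15, 0.02 and 0.12 in CYT2 and at -0.11, -0.12 and -0.18 in CYT1.

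The direct comparison of CYT2 with CYT1 asked whether the 2 forms differ. The brightest probe read higher in CYT2 in 43 of the 44 genes (97.7%, against 50.1% of all probes), with a median difference of 0.35 on the log2 scale against 0.00 over all probes. No single gene passed by limma: 0 of 44 had an adjusted p under 0.05, where 0.472% of all probes did (0.202% higher and 0.271% lower in CYT2), and the adjusted p ran from 0.0597 to 0.791. At an unadjusted p under 0.05, 35 of 44 genes passed, against 17.5% of all probes. The 4 CYT2 arrays all lay above the 4 CYT1 arrays for 29 genes, against 6.11% of all probes, and all below for 0, against 5.34% (11.4% of probes in either direction). The exception in direction was ORC6, at -0.06 ± 0.08 by its brightest probe, while its second probe stood at 0.25 (limma adjusted p = 0.297).

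Medians by role ran from 0.30 for chromatin and fork protection genes, through 0.31 for licensing, 0.34 for primase and polymerases, 0.37 for clamp and loader, and 0.41 for both nucleotide supply and Okazaki joining, to 0.44 for helicase activation. RRM2 had the highest, 0.68 ± 0.10 (adjusted p = 0.0597), followed by CDT1 at 0.53 ± 0.08 (adjusted p = 0.0628), GINS3 at 0.52 ± 0.10 (adjusted p = 0.0806) and TK1 at 0.51 ± 0.09 (adjusted p = 0.073). Genes below and above the VEC level both read higher in CYT2 than in CYT1: PRIM1, lower in CYT1 than in VEC, differed by 0.49 ± 0.10 (adjusted p = 0.102), and CDC45, high in both, by 0.49 ± 0.10 (adjusted p = 0.0953). All 6 helicase ring subunits read higher in CYT2 on every array, by 0.21 to 0.43. RPA1, POLD3, RPA2, PCNA, CHAF1A and RRM1 stood at 0.07 to 0.14 with overlapping arrays.

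How many genes were called in this comparison depended on the spread model and the scaling. The count was 24 with quantile scaling of uncorrected signals, 20 with the deposited values, 13 with an offset of 50, 11 over probes detected on all 12 arrays, 24 with all 12 arrays and the replicate as a random block, and 26 with an intensity trend and robust prior. In the random-block fit the estimated correlation within a replicate was -0.14, with 9 residual degrees of freedom. That block thus did not reduce the technical arrays to 1 value per replicate. It was 0 with median scaling, with no detection filter and when any 1 replicate was left out. Technical arrays 1 or 2 alone, scaling to the median of tested probes and the replicate number as a block also gave 0. So did the mean over all tested probes of a gene. The count of 43 genes above 0 was the same under each of the 5 other scalings and offsets tried. It was 41 without CYT1 replicate 2 (ORC1 and POLD3 turned sign), 42 without CYT1 replicate 1 (CHAF1A) or CYT2 replicate 2 (RFC1), and 42 with technical arrays 1 alone (PCNA) or 2 alone (CHAF1A). With the mean over all tested probes of a gene it was 44, as ORC6 turned.

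**Figure D5:**
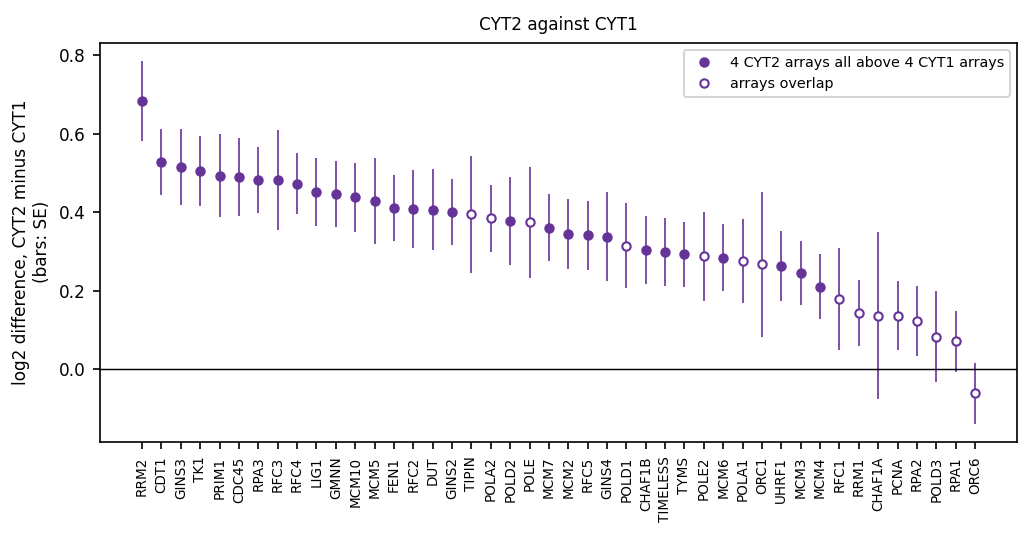
Log2 difference, CYT2 minus CYT1, of the 44 tested genes from highest to lowest, with the model's SE as bars. Filled symbols mark the 29 genes whose 4 CYT2 arrays all lie above the 4 CYT1 arrays, and ORC6 alone lies below 0.

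Other genes of the pathway were called about as often as all probes. Of a list of 71 further replication and nucleotide genes 69 were on the array and 62 were tested. In CYT2 13 rose and 8 fell (33.9%, against 30.4% of all probes), with a median of 0.00, and in CYT1 9 rose and 15 fell (38.7%, against 35.9%), with a median of -0.09. The balance turned in CYT2 with the scaling: 9 rose and 18 fell with median scaling and 8 and 18 with the deposited values, while in CYT1 8 rose and 26 fell with median scaling and 8 and 28 with the deposited values. Of these genes MCMBP and DHODH were above background on no array of at least 1 group and passed the filter through VEC. Without them 13 rose and 6 fell in CYT2 and 9 rose and 13 fell in CYT1. These counts still hold TICRR, called higher in both ICD groups, which passed the filter through them. TICRR was above background on 4 CYT2, 4 CYT1 and 1 VEC arrays. None differed between CYT2 and CYT1 by limma (0 of 62, and 15 at an unadjusted p under 0.05). The counts fell to 11 in CYT2 without VEC replicate 1 or either CYT2 replicate and to 13 without VEC replicate 2, and to 14 in CYT1 without VEC replicate 1.

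FAM111A, a protease that acts at stalled forks and binds PCNA, had the largest called change of this list in both comparisons. It gave 10.98, 10.87, 11.02 and 10.93 in CYT2, 10.57, 10.52, 10.50 and 10.62 in CYT1 and 9.30, 9.23, 9.31 and 9.07 in VEC. The groups were fully apart, and the rise was 1.73 ± 0.08 in CYT2 (adjusted p = 0.000102) and 1.33 ± 0.08 in CYT1 (adjusted p = 0.000197). RRM2B, the p53-induced reductase subunit used outside S phase, was unlike RRM2 in reading highest in CYT1. It measured 9.04, 8.44, 8.72 and 8.58 in CYT2, 9.09, 8.93, 9.16 and 8.86 in CYT1 and 7.94, 7.97, 8.14 and 7.88 in VEC. RRM2B rose by 0.71 ± 0.08 in CYT2 (adjusted p = 0.00216) and 1.03 ± 0.08 in CYT1 (adjusted p = 0.000464), and CYT2 minus CYT1 was -0.31 (adjusted p = 0.145).

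By their brightest probes MCM8, ASF1B and CHTF18 rose in both ICD groups. MCM8, a helicase of recombination repair outside the MCM2 to MCM7 ring, rose by 1.04 ± 0.14 in CYT2 (adjusted p = 0.00325) and 0.98 ± 0.14 in CYT1 (adjusted p = 0.00313). Its second probe disagreed in CYT1: it rose by 0.47 in CYT2 (adjusted p = 0.0214) but stood at -0.26 in CYT1 (adjusted p = 0.109), with all CYT1 arrays below all VEC arrays. ASF1B, a histone chaperone of replicating cells, rose by 1.40 ± 0.11 in CYT2 (adjusted p = 0.000625) and 0.65 ± 0.11 in CYT1 (adjusted p = 0.00672). CHTF18, of an alternative clamp loader, rose by 0.96 ± 0.08 in CYT2 (adjusted p = 0.000842) and 0.61 ± 0.08 in CYT1 (adjusted p = 0.00316).

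Genes for the synthesis of purines and pyrimidines, upstream of deoxynucleotide supply, did not rise with the 5 nucleotide supply genes among the members. Of 12 tested genes 0 rose and 4 fell in CYT2, with a median of -0.27, and 0 rose and 8 fell in CYT1, with a median of -0.36. The share called in CYT2 was 33.3%, near the 30.4% of all probes, and in CYT1 66.7%, against 35.9%. Of all probes 15.6% were called lower in CYT2 and 19.2% in CYT1. Without DHODH, which passed the filter only through VEC, 3 of 11 fell in CYT2 and 7 of 11 in CYT1. The CYT2 count was 9 with median scaling or the deposited values, 8 with quantile scaling of uncorrected signals, 8 with a random block, 9 with a trend and robust prior, and 0 with technical arrays 1 alone. The CYT1 count was 3 with no detection filter or with either technical array alone. The counts were 2 in CYT2 without CYT2 replicate 2 or either VEC replicate, and 3 to 5 in CYT1 when 1 replicate was left out. DHODH, of pyrimidine synthesis, was above background on 0 of the 4 CYT2, 0 of the 4 CYT1 and 4 of the 4 VEC arrays. Its level was at least 1.32-fold lower in CYT2 and at least 1.31-fold lower in CYT1, where the ICD level is set at the detection limit, and since VEC alone brought it past the filter no test is given.

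Genes of mitosis are given for comparison, and the difference between the lists was not tested. Of 32 tested, 32 rose in CYT2 (100%, against 30.4% of all probes called) with a median of 2.21. In CYT1 31 rose and 0 fell (96.9%, against 35.9%) with a median of 1.79. The matching medians of the replication genes were 0.13 in CYT2 and -0.19 in CYT1. Between CYT2 and CYT1 4 mitosis genes passed (12.5%, against 0.472% of all probes), all higher in CYT2, and all 32 lay above 0 with a median of 0.55. That count was 0 when any 1 replicate was left out.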

How the data were processed

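RNA of 3 groups of MCF10A cells was measured on 12 Illumina bead arrays. The authors deposited average signal intensity per probe with a detection p-value, per the file headers, and a second table of log2 values that equal log2 of those signals for every probe. That identity, with the group, letter and number in each signal column's name, tied the signals and detection p-values to samples. The direction of that scale is known, nothing in it was centred, and the array software is not given in the sources used here. Intensities were background-corrected with negative controls inferred from detection p-values, offset by 16 and quantile-normalised (neqc of limma 3.58.1, R 4.3.3). Fold changes are on this offset scale, which understates those of dim probes. Probes with detection p under 0.05 on both arrays of at least 2 biological replicates were kept. After averaging technical arrays, limma fitted the 3 groups together over 6 biological replicates (3 residual and 3.07 prior degrees of freedom). P-values were two-sided and adjusted by Benjamini-Hochberg within a contrast over 17356 probes. A gene is called, or said to rise or fall, at an adjusted p under 0.05, by its probe of highest mean.

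The number of arrays limits the precision. Probe symbols came from the array annotation, with 30113 probes having 1 symbol, 8 several and 17202 none. Promoter letters came from RefSeq. Values on every array are given for up to 3 called members of each role with the largest change against VEC, and the 4 pathway genes of largest change per contrast are named; other values are summaries or were chosen after they were seen. The members and lists were chosen with earlier results of these data known. Same-numbered replicates did not deviate together (correlations of 0.02, -0.01 and 0.00), so no pairing was used. Plots were drawn with matplotlib 3.10.9 under Python 3.11.15. Other scalings, filters, spread models and left-out replicates were tried as alternatives.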

Additional observations from a re-analysis of the deposited data

Results flagged for a closer look

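Of 60 sets of 4 arrays (20 members in 3 groups), 2 held an array that stood apart from the other 3 of its group by Dixon's ratio, where chance alone gives about 1 in 20. GINS4 read 6.099 on technical array 2 of CYT1 replicate 1, against 6.647 to 6.733 on the other CYT1 arrays (gap over range 0.864), and that array still lay above all VEC arrays. RPA2 read 10.685 on technical array 1 of VEC replicate 2, against 10.394 to 10.426 on the other VEC arrays (0.890), and that reading lay below all CYT2 arrays.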

How the results depend on the processing

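For the 20 members with values on every array, the sign of each called change was the same under all alternatives. Apart from left-out replicates, calls were lost in 17 of 143 tests of the 11 called in CYT2 against VEC and 27 of 208 tests of the 16 called in CYT1 against VEC. Leaving out 1 replicate gave 8 to 12 members called in CYT2 against VEC (medians 0.0933 to 0.1702, 3020 to 4921 probes, 11 to 20 pathway genes, 32 to 32 mitosis genes). It gave 8 to 21 in CYT1 against VEC (medians -0.2183 to -0.1785, 3969 to 5688 probes, 14 to 20 pathway genes, 30 to 31 mitosis genes) and 0 to 0 between CYT2 and CYT1 (medians 0.307 to 0.3944, 0 to 3 probes, 0 to 0 pathway and 0 to 0 mitosis genes).

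Between CYT2 and CYT1, the 82 probes called became 994 with quantile scaling of uncorrected signals, 51 with scaling to the median of tested probes, 706 with the deposited log2 values and 482 with an offset of 50. They became 2 with no detection filter, 346 over probes detected on all 12 arrays, 1 with technical arrays 1 alone, 2 with technical arrays 2 alone, 1094 with a random block and 1096 with a trend and robust prior. Members called, 0 here, became 24, 20, 13, 11, 24 and 26 with quantile scaling of uncorrected signals, the deposited values, the offset of 50, detection on all arrays, the random block and the trend. In that order pathway genes called became 5, 4, 2, 2, 2 and 4, and mitosis genes, 4 here, became 30, 28, 25, 19, 24 and 28. Mitosis genes called were 2 with median scaling, 1 with scaling to tested probes, and 0 with no filter or with either technical array alone. The median of the members was 0.2754 with quantile scaling of uncorrected signals, 0.3823 with median scaling, 0.292 with the deposited values and 0.3229 with the offset of 50.

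Against VEC, the median of the members was 0.1056, 0.025 and 0.0103 in CYT2 and -0.1404, -0.3203 and -0.2397 in CYT1 with quantile scaling of uncorrected signals, median scaling and the deposited values, and 0.1858 in CYT2 with technical arrays 1 alone. With technical arrays 1 and then 2 alone, 2972 and 2937 probes were called in CYT2 and 3720 and 3931 in CYT1. Pathway genes called were then 10 and 10 in CYT2 and 15 and 15 in CYT1, members called 10 and 8 in CYT1, and 8 in CYT2 with technical arrays 2. With the replicate number as a block, members called were 11 in CYT2, 20 in CYT1 and 0 between them, and probes 4732, 5719 and 2, with 0 mitosis genes between them. Scaling to tested probes was chosen after seeing the data, as were all alternatives for the pathway and mitosis counts. Prior degrees of freedom, 3.07 here, were 11.6 with quantile scaling of uncorrected signals, 5.65 with the offset of 50 and 3.91 with median scaling. They were 4.07 with detection on all arrays, 3.50 with the random block and 13.6 with the trend. With the deposited values they were infinite, so all probes shared a single estimate of the spread. Single technical arrays and left-out replicates use fewer arrays by construction. The cause of the other shifts was not tested.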
